A study of Mus musculus and Rattus norvegicus with 12 samples.

Results

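The comparison described here set hearts of Jmjd4 cKO mice against hearts of flox mice, 3 libraries against 3, which are 6 of the 12 RNA-seq libraries of the study. The libraries were chosen by their genotype labels alone, and every gene that passed the filter on low counts was tested. The study's title ties JMJD4 to the breakdown of PKM2 in cardiomyocytes and to dilated cardiomyopathy, a disease in which the heart widens and pumps weakly. Both groups carried floxed Jmjd4 alleles (Jmjd4f/f), both received tamoxifen, and heart apex was taken from both on day 14 after it. The cKO mice also carried MCM, which the labels call a myh6 cre, and no Cre is named for the flox mice. MCM is a Cre recombinase flanked by mutant oestrogen receptor domains, which lets tamoxifen bring it into the nucleus, and the Myh6 promoter drives it in cardiomyocytes. The effect of the Cre protein and that of the lost Jmjd4 therefore cannot be told apart here, and the other cell types of the heart were not targeted. The labels give no age, sex or strain. Nothing in the labels ties a library to a single mouse, so p-values measure only the spread between these libraries, which may be technical.

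JMJD4 belongs to the Jumonji C family of oxygenases and is known to hydroxylate the release factor that ends translation. A heart under load is known to change the signals that pass between its cells. Cardiomyocytes secrete natriuretic peptides and growth factors, fibroblasts lay down matrix that stores and releases latent TGF-beta, and immune cells follow chemokine gradients into the tissue. Receptors on each cell type read these signals, and transcription regulators such as the nuclear receptors and their coactivators set the metabolic and electrical programme of the myocyte. Genes of 8 roles were therefore followed, namely ligands, secreted antagonists and binding proteins, matrix genes, extracellular proteases and their inhibitors, receptors, transcription regulators, intracellular signal regulators and channels, with 2369 genes in all.

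Total counts ran from 66364405 to 80297797 per library. Flox replicate 3 stood apart: mitochondrial genes took 41.7% of its counts against 14.2% to 24.1% elsewhere, 1485 of the tested genes were at 0 against 125 to 503, and its levels against the other flox libraries fell with transcript length (Spearman's rho -0.62 across genes, which are not replicates). Replicate 2 of the cKO hearts shared the last feature within its group (rho -0.55), with 503 tested genes at 0. The calls of each role are therefore counted with all 6 libraries and with the 5 that remain without flox replicate 3. Not every named gene has values from both fits. A gene for which only a call with 5 libraries is given was not called with 6. Levels are CPM, which scale each library's counts to a common depth by its TMM-scaled total, listed for replicates 1, 2 and 3 in that order, and a gene was called when its adjusted p was under 0.05. With 6 libraries, 67 of 18094 tested genes (0.37%) were called higher and 25 (0.138%) lower in cKO hearts. With 5 libraries, 813 of 19094 (4.26%) were called higher and 560 (2.93%) lower. The 3 cKO values lay above all 3 flox values for 14.9% of tested genes and below them for 11.2%. Under total counts alone the median gene stood at log2 0.54 with 6 libraries and 0.27 with 5, and the calls became 20 higher and 0 lower and, with 5 libraries, 1340 higher and 336 lower. The 0 lower calls stood beside 2742 genes of either direction at an unadjusted p under 0.05, and DESeq2 called 957 higher and 791 lower in the 6 libraries. Leaving out any library other than flox replicate 3 from the 6 left 0 genes called by edgeR, with 1657 to 2587 at an unadjusted p under 0.05. Fold changes are given on the scale that TMM sets.

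Jmjd4 itself (chr11:59450045-59458567, plus strand, GENCODE M21 on mm10) was read at 19, 8.04 and 16.9 CPM in flox hearts and at 8.95, 4.92 and 9.63 CPM in cKO hearts. Within this spread the groups overlapped, because flox replicate 2 lay below cKO replicates 1 and 3. Jmjd4 had a log2 fold change of -0.90 ± 0.44 (SE, adjusted p = 0.397), or -0.79 with 5 libraries (adjusted p = 0.334), so the targeted gene was not called. A whole-gene count also holds reads from untargeted cells and from exons outside the deleted part, and the labels do not say which exons were deleted. Esr1, the oestrogen receptor gene, was at 2.21, 1.76 and 0.508 CPM in flox and 1066, 824 and 474 CPM in cKO hearts. Every cKO library was far above every flox library, with a log2 fold change of 9.03 (adjusted p = 0.0255). Part of the MCM transgene is oestrogen receptor sequence, so the Esr1 counts check the Cre label and say nothing certain of the endogenous gene.

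The role lists were not called at the same rate. Among tested secreted antagonists and among matrix genes, 33.3% were called higher with 5 libraries, against 4.26% of all genes. Proteases and their inhibitors followed at 19.3%, receptors at 13.7%, ligands at 11.6%, signal regulators at 10.2% and transcription regulators at 6.75%. Channels were the role with more calls in the lower direction, at 12.4% lower and 3.53% higher. In all, 302 role members were called with 5 libraries, where 7.19% of all genes were called in either direction, and the sign with 6 libraries was the same for each of the 302. For 289 of them the fits differed by less than 1 on the log2 scale, and 42 were also called with 6 libraries, where 0.508% of all genes were. The cKO values did not overlap any of the 3 flox values for 256 of them (84.8%), against 81% of all genes called with 5 libraries. With cKO replicate 2 left out as well, 301 of the 302 were called (19.1% of all genes), after correction for transcript length 300 (13.9% of all genes), and on total counts alone 275 in the same direction (8.78% of all genes). Of all 1373 genes called with 5 libraries, 1372 were called without cKO replicate 2 and 1349 with the length correction. The 302 were picked with 5 of the same 6 libraries, so these agreements were largely fixed beforehand and give no independent support.

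**Figure D1:**
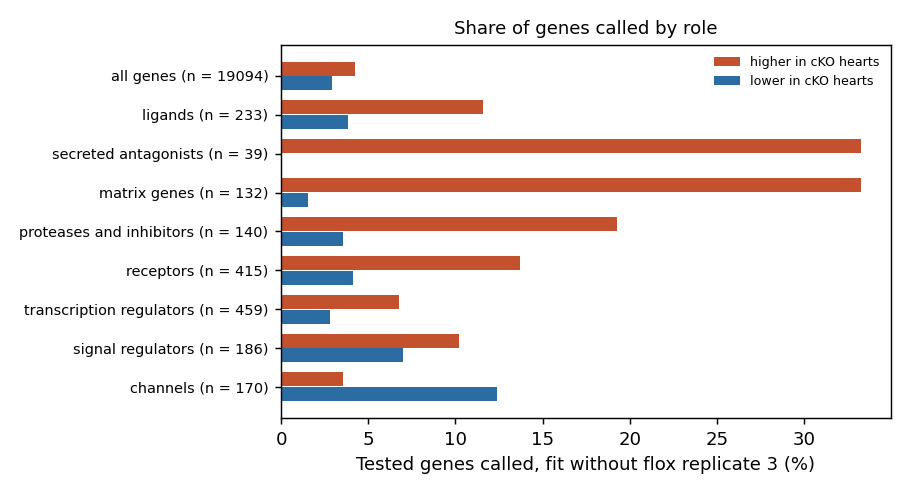
Share of tested genes called higher (red bars) and lower (blue bars) in cKO hearts for each role and for all genes, with flox replicate 3 left out (5 libraries); the x axis is the percent of tested genes and n is the number tested. Antagonists and matrix genes have the longest red bars, both 33.3%, and channels the longest blue bar, 12.4%.

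**Figure D2:**
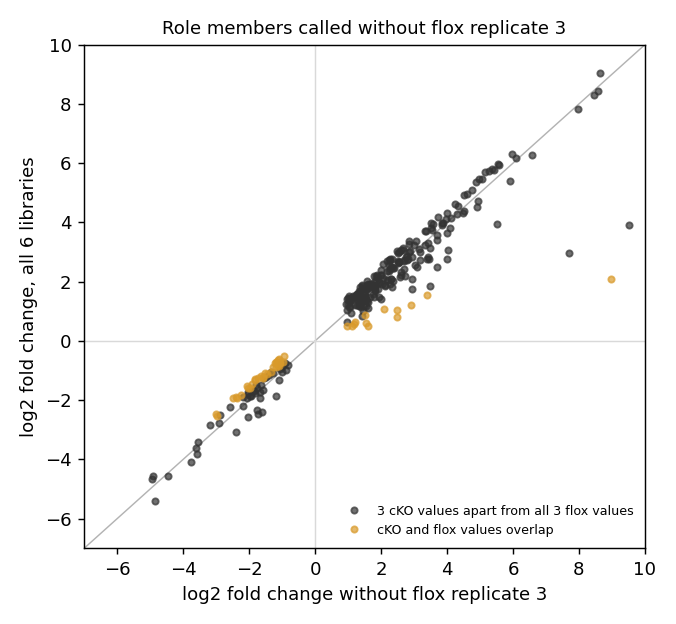
Log2 fold change with all 6 libraries (y axis) against that without flox replicate 3 (x axis), 1 point per role member called without it; the grey diagonal marks equal values, and orange points are members whose cKO and flox values overlap. The 302 points all lie in the lower left and upper right corners of the plot, and the 3 points farthest right of the diagonal are members at 0 in flox replicates 1 and 2.

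Nppa had the highest log2 fold change of the called ligands with a mean of at least 1 CPM, and Nppb, its neighbour, was called with 5 libraries only. The promoter sequences of these natriuretic peptides are shown because they are the best known load-responsive genes of the ventricle, together with those of 2 transcription regulators, Ankrd1, which rose with them in the fit of 5 libraries, and Perm1, which fell. Each run is the 250 bases upstream of the RefSeq start on the gene's own strand, 5′ to 3′, build GRCm38.p6. GENCODE M21 places every annotated start of Nppb, Ankrd1 and Perm1 upstream of that start, the farthest by 112, 255 and 59 bases, so for these 3 genes the windows and positions hold for the RefSeq start only. Capitals mark matches on either strand to 4 motifs, of which TATAAA is the core of the TATA box and GGAATG is read by TEAD factors of the Hippo pathway. The third, AGATAA, is read by GATA factors, and AAGGTCA is the half-site of oestrogen-related receptors. Motifs named AP-1, MEF2, CRE and CArG were searched too, and none matched in the printed windows. No marked motif overlaps another.
Nppa: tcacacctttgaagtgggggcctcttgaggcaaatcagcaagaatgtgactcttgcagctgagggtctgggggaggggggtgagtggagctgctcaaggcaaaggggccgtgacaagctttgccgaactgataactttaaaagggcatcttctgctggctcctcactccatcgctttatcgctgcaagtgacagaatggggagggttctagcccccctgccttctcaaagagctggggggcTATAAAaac
Nppb: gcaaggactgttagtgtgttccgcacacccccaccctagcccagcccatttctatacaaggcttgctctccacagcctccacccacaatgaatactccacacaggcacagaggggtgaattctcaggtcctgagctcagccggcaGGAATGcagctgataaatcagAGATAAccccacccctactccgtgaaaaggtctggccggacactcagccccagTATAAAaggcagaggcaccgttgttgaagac
Ankrd1: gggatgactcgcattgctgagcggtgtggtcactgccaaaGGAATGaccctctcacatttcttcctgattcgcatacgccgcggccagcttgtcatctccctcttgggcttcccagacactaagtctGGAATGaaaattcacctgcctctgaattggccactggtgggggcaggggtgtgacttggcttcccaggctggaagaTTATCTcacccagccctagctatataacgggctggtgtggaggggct
Perm1: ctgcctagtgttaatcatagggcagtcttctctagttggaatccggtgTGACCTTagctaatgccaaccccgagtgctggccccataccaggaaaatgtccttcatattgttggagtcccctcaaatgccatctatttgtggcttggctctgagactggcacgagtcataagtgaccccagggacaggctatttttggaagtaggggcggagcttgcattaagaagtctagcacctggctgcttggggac
Nppa (chr4:148000472-148000721, plus strand) has TATAAA beginning 9 bases before the start. Nppb (chr4:147985650-147985899, plus strand), its neighbour, has GGAATG at 105, AGATAA at 84 and TATAAA at 31 bases before the start. Ankrd1 (chr19:36119845-36120094, minus strand) has GGAATG at 210 and 123 bases before the start and the reverse complement of AGATAA at 47. Perm1 (chr4:156215677-156215926, plus strand) has the reverse complement of AAGGTCA at 202 bases before the start. Over all 32851 promoter windows of this length in the table, 12.6% hold GGAATG, 9.99% AGATAA, 12.4% TATAAA and 4.08% AAGGTCA. These are letter matches only, and factor binding was not measured.

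Nppa, which encodes atrial natriuretic peptide, was at 92.8, 119 and 175 CPM in flox and 7665, 16482 and 6031 CPM in cKO hearts. All cKO libraries were far above all flox libraries, 78-fold in the fit (log2 6.29 ± 0.70 SE, adjusted p = 0.0333) and 95.3-fold with 5 libraries. Nppb, encoding B-type natriuretic peptide, was at 132, 92.8 and 981 CPM in flox and 949, 1871 and 728 CPM in cKO hearts. Here flox replicate 3 sat among the cKO libraries, and the call rested on leaving it out: log2 1.56 (adjusted p = 0.52) with 6 libraries and 3.40 (adjusted p = 0.014) with 5. Edn1, the precursor of the vasoconstrictor endothelin-1, was at 4.75, 4.22 and 5.51 against 18.5, 15.9 and 12.7 CPM, without overlap, and was called with 5 libraries at log2 1.81 (adjusted p = 0.0128; 0.0654 with 6). The atrial markers summed to 98.4 to 184 CPM in flox and 6091 to 16578 CPM in cKO hearts, a sum that Nppa dominates, and 4 of the 4 tested, Nppa and Dkk3 among them, were called higher with 5 libraries. Bmp10, another marker on that list, was at 0 in all 6 libraries.

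Across the ligands, 220 of 341 listed genes were tested with 6 libraries, of which 6 were called higher and 1 lower. The higher share was 2.73%, against 0.37% of all genes, of which 0.138% were called lower. With 5 libraries, 27 of 233 (11.6%) were called higher and 9 (3.86%) lower, against 4.26% and 2.93% of all genes. The ligands that rose with 6 libraries were Nppa, Ereg, Gdf6, Angptl7, Cxcl10 and Tgfb3, and the one that fell was Efnb3. Those called with 5 libraries at a mean of at least 1 CPM ran from log2 1.31 to 6.57 among the 25 higher and from -3.56 to -1.19 among the 9 lower.

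Of 23 TGF-beta superfamily ligands tested with 5 libraries, 5 were called higher (21.7%, against 4.26% of all genes) and none lower. At an unadjusted p under 0.05, 2 were lower, and DESeq2 called 1 lower. Tgfb3, one of the 3 TGF-beta isoforms that drive fibroblasts to make matrix, was at 18.2, 18.1 and 11.7 CPM in flox and 75, 74.7 and 111 CPM in cKO hearts (log2 2.44 ± 0.36 SE, adjusted p = 0.049). Tgfb2 was at 8.87, 8.99 and 1.33 against 45.2, 36.8 and 45.1 CPM and was called with 5 libraries only (log2 2.25, adjusted p = 0.00524; 0.136 with 6). In both genes flox replicate 3 gave the lowest value, so that leaving it out made the difference smaller and the spread tighter. Gdf6, a BMP-type growth factor, was at 0.751, 0.649 and 0.141 CPM in flox and 24.7, 17 and 28.5 CPM in cKO hearts, nearly absent in the first and clear of them in every library of the second (log2 5.46, adjusted p = 0.0387). Gdf15, a stress-responsive member that acts on appetite through the hindbrain, went from 1.17, 0.947 and 1.16 to 5.37, 7.17 and 15.6 CPM (log2 3.14 with 5 libraries, adjusted p = 0.0197; 0.0574 with 6). Bmp4 was the smallest of the 5 by fold, at 5.39, 3.45 and 5.82 against 12.8, 14.3 and 11.1 CPM (log2 1.53, adjusted p = 0.0258 with 5 libraries).

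Growth factors of families that signal through tyrosine kinases moved in both directions. Of 8 EGF and neuregulin ligands tested with 5 libraries, 2 were called higher (25.0%, against 4.26% of all genes) and 1 lower (12.5%, against 2.93%). Ereg (epiregulin) and Hbegf, both ligands of the EGF receptor family, were higher. Egf was called lower with 5 libraries (log2 -2.36), with overlapping groups. Ereg was at 0.153, 0.156 and 0.198 against 2.86, 3.41 and 4.33 CPM (log2 4.39, adjusted p = 0.0255), and Hbegf was at 12.4, 11.9 and 11.2 against 36.4, 50.1 and 41.9 CPM (log2 1.82, adjusted p = 0.00967 with 5 libraries; 0.0508 with 6). Igf1 was at 16.8, 19.1 and 15.8 CPM in flox and 46.3, 38.8 and 66.2 CPM in cKO hearts, again with 5 libraries called and 6 not (adjusted p = 0.0263 and 0.0946). The heparin-binding factors Ptn and Mdk rose with 5 libraries, by log2 2.74 and 3.10. Angpt1, the ligand that keeps endothelial Tie2 active, was lower, at 32, 35.1 and 21.6 against 10.6, 7.59 and 9.37 CPM (log2 -1.86, adjusted p = 0.00877 with 5 libraries). Fgf13, a member of the family that stays inside the cell and binds sodium channels, was at 40.7, 42.3 and 32.9 against 9.37, 10.8 and 11.8 CPM (log2 -1.96, adjusted p = 0.00526 with 5 libraries; 0.0508 with 6). Vegfb, a growth factor of endothelial cells and of fat handling in muscle, was at 222, 219 and 278 against 87.3, 157 and 112 CPM and was not called in either fit (adjusted p = 0.257 and 0.108), although its cKO values lay below all flox values.

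Other ligands fell. Efnb3, a membrane-bound ephrin, was at 71.9, 99.2 and 61.2 CPM in flox and 8.55, 7.92 and 5.25 CPM in cKO hearts, 10.7-fold lower and apart in every library (log2 -3.42 ± 0.38 SE, adjusted p = 0.0333). Fndc5, the precursor of irisin, was at 329.7, 284 and 719.9 against 59.2, 80.9 and 82.2 CPM (log2 -2.05, adjusted p = 0.0083 with 5 libraries; 0.0811 with 6). Flox replicate 3 was the highest library for Fndc5. The same held for Il15, at 13, 14 and 43.3 against 4.64, 4.07 and 4.55 CPM. It held too for Angptl4, an inhibitor of lipoprotein lipase, at 9.05, 7.06 and 22.4 against 3.67, 3.45 and 3.44 CPM. Il15 and Angptl4 fell with 5 libraries by 1.61 and 1.19 on the log2 scale. Cdnf, a neurotrophic factor held in the endoplasmic reticulum, was even across flox hearts at 21.8, 24.1 and 25.8 CPM and at 6.74, 5.29 and 9.48 CPM in cKO hearts (adjusted p = 0.018 with 5 libraries, 0.0749 with 6).

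Some chemokines were called higher, at low levels. With 5 libraries 6 of 31 tested were called higher (19.4%, against 4.26% of all genes) and none lower. At an unadjusted p under 0.05, 2 were lower, and DESeq2 called 1 lower. With 6 libraries 1 of 31 was called higher (3.23%, against 0.37% of all genes), and 11 of the 31 had lower values in cKO hearts. Cxcl10, which draws cells bearing Cxcr3, was at 0.636, 0.545 and 0.649 against 3.56, 4.25 and 4.33 CPM and was called in both fits (log2 2.73, adjusted p = 0.0387 with 6 libraries). Cxcl16, the ligand of Cxcr6, was at 8.8, 8.46 and 21.1 against 28.1, 35.3 and 39.6 CPM, with flox replicate 3 between the other flox libraries and the cKO ones. The monocyte chemokine Ccl12 was at 0.496, 0.649 and 4.23 against 7.67, 5.92 and 5.58 CPM. Ccl5 was at 0.534, 0.558 and 1.1 against 2.93, 3.71 and 3.42 CPM. Ccl8 was at 0.254, 0.0778 and 1.24 against 5.26, 5.34 and 12.5 CPM. For these 4 genes the calls came with 5 libraries only, and for Ccl12 flox replicate 3 moved the log2 fold change from 3.48 to 1.86 (adjusted p = 0.361). Spp1 (osteopontin), a secreted product of macrophages among other cells, was at 0.407, 0.726 and 0.226 against 6.64, 4.46 and 16.5 CPM and was called with 5 libraries (log2 4.01, adjusted p = 0.0208).

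**Figure D3:**
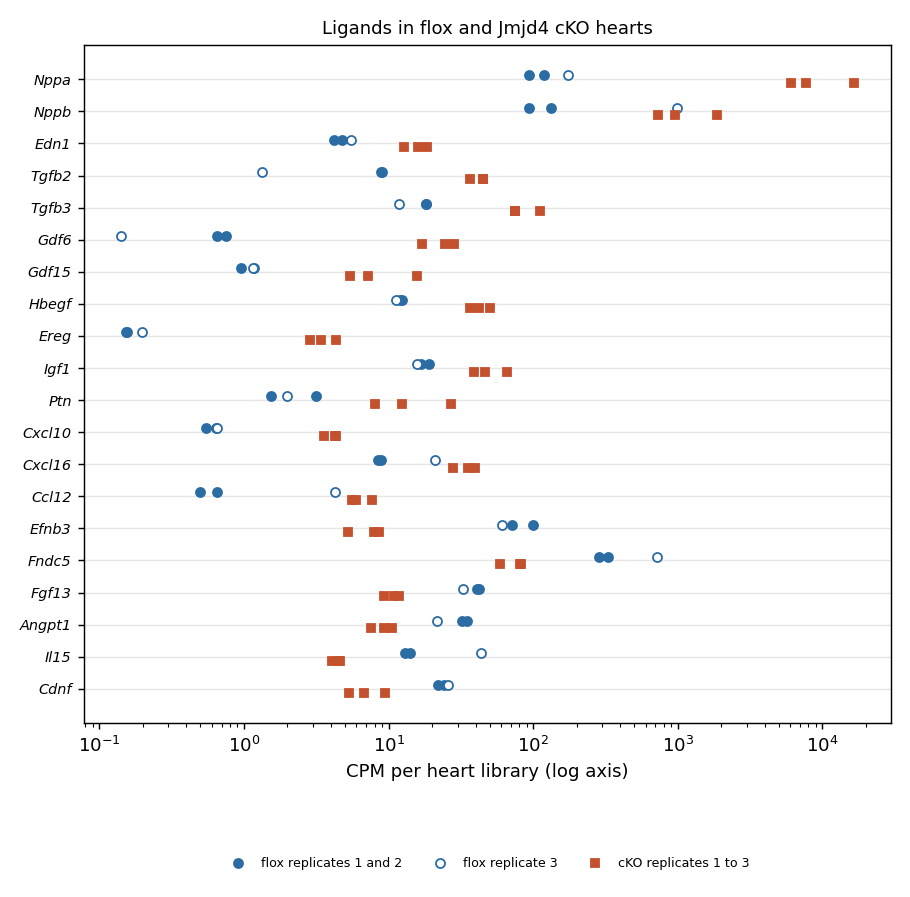
Level of 20 ligand genes in each heart library, on a log axis in CPM; filled circles are flox replicates 1 and 2, open circles flox replicate 3, and squares the 3 cKO replicates. Nppa sits at 92.8, 119 and 175 CPM in flox and 7665, 16482 and 6031 CPM in cKO hearts, and Nppb shows flox replicate 3 at 981 CPM among the cKO squares.

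Secreted antagonists and binding proteins were a role with calls in 1 direction. Of 46 listed genes, 38 were tested with 6 libraries and 4 (Frzb, Fstl3, Sost and Ltbp2) were called higher, and with 5 libraries 13 of 39 were called higher. These were 10.5% and 33.3%, against 0.37% and 4.26% of all genes. None was called lower in either fit, while 2 (6 libraries) and 3 (5 libraries) were lower at an unadjusted p under 0.05 and DESeq2 called 1 and 3 lower. The Wnt antagonists made up 5 of the 13. Frzb, a secreted decoy for Wnt, was at 3.42, 3.9 and 3.53 CPM in flox and 46.2, 62.1 and 82.8 CPM in cKO hearts, 17.6-fold higher, and flox replicate 3 lay between the other flox libraries (log2 4.14 ± 0.36 SE, adjusted p = 0.0255). Its relatives Sfrp1, at 13.2, 14.4 and 6.38 against 116, 87.5 and 269.6 CPM, and Sfrp2, at 3.09, 3.23 and 0.932 against 33.3, 53.8 and 132 CPM, were called with 5 libraries (adjusted p = 0.0158 and 0.0135; 0.0574 and 0.0574 with 6). Dkk3 went from 3.37, 3.72 and 0.452 to 35.8, 38.9 and 46.6 CPM (log2 3.51, adjusted p = 0.00262 with 5 libraries). Sost (sclerostin), best known as the Wnt inhibitor made by osteocytes, was at 0.814, 0.311 and 0.339 against 7.16, 7.51 and 5.11 CPM and was called in both fits (log2 3.74, adjusted p = 0.0452 with 6 libraries).

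Of 13 latent TGF-beta and IGF binding proteins, which hold their ligands outside the cell, 3 were called higher with 5 libraries and 1 with 6. These were 23.1% and 7.69%, against 4.26% and 0.37% of all genes. Ltbp2, a latent TGF-beta binding protein of elastic fibres, was at 1.88, 3.41 and 0.903 CPM in flox and 144, 58 and 294 CPM in cKO hearts, 79.5-fold higher with cKO replicate 2 the lowest of its group (log2 6.31 ± 0.87 SE, adjusted p = 0.0456). Ltbp3, which is secreted bound to latent TGF-beta, was at 39.9, 43.9 and 7.34 against 98.3, 80.1 and 159.9 CPM, and flox replicate 3 was far below the other flox libraries (adjusted p = 0.0478 with 5 libraries and 0.263 with 6). Ltbp4, another latent TGF-beta binding protein, and Igfbp5, which binds IGF, were not called in either fit, at 380.0, 318 and 24.3 against 674, 463 and 738 CPM and 166, 180.2 and 35.5 against 451, 258 and 209 CPM. Outside that family, Fstl3, an inhibitor of activin and myostatin, was at 4.76, 3.39 and 3.7 against 23.1, 32.7 and 23.2 CPM (log2 2.74, adjusted p = 0.0346 with 6 libraries). Fstl1 went from 139, 144 and 87 to 538, 511 and 1034 CPM and Igfbp7, an IGF binding protein of the family, from 149.8, 138 and 255 to 536, 886 and 774 CPM, both without overlap and both called with 5 libraries (adjusted p = 0.0193 and 0.0104).

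Matrix genes had the most calls of any role with 6 libraries. Of 128 tested with 6 libraries 11 were called higher and none lower (3 lower at an unadjusted p under 0.05, 2 by DESeq2), and of 132 tested with 5 libraries 44 were called higher and 2 lower. With 5 libraries that was 33.3% and 1.52%, against 4.26% and 2.93% of all genes. With 6 libraries the higher share was 8.59%, against 0.37% of all genes. The 11 were Wisp2, Ctgf, Wisp1, Comp, Cilp, Col8a2, Mfap4, Lox, Bgn, Aspn and Omd. The CCN family, matrix proteins that bind growth factors and integrins, supplied 3 of them. Wisp2 was at 3.86, 4.35 and 6.32 CPM in flox and 109.6, 159.8 and 109.9 CPM in cKO hearts (log2 4.71 ± 0.40 SE, adjusted p = 0.0255). Ctgf was at 60.2, 46.9 and 32.5 against 881, 1201 and 1180.2 CPM (log2 4.55 ± 0.46 SE, adjusted p = 0.0255). Every cKO library was far above every flox library for both, and Wisp1 rose too, from 2.95, 2.04 and 2.15 to 13.5, 13.6 and 24.9 CPM. Elastic fibre genes had 10 of 19 tested called higher with 5 libraries, among them Lox, the enzyme that crosslinks elastin and collagen, at 7.89, 4.98 and 2.6 against 141, 97.2 and 288 CPM (called in both fits). Eln was at 122, 115 and 24 against 665, 572 and 837 CPM. Of the collagens, 7 of 38 were called higher with 5 libraries, led by Col8a2 at 0.204, 0.623 and 0.339 against 19.8, 17.4 and 47.6 CPM. Col4a1 of the basement membrane was at 897, 780.2 and 70.3 against 859.7, 509 and 1356 CPM and was not called (log2 0.11 with 5 libraries, adjusted p = 0.903). Lamb3, a laminin chain of the basement membrane, fell with 5 libraries (log2 -1.68), at 11.8, 11.2 and 17.7 against 3.04, 3.76 and 4 CPM. Matricellular proteins had 18 of 39 tested (46.2%) called higher with 5 libraries, among them Postn (periostin), at 52.6, 52 and 18.7 against 836, 533 and 2446 CPM, and Thbs4, at 1.39, 2.35 and 4.38 against 60.5, 62 and 219 CPM. Both were just short of the threshold with 6 (adjusted p = 0.0615 and 0.0502). The proteoglycan Bgn (biglycan) was at 178, 166 and 128 against 1094, 1072 and 1653 CPM and was called in both fits (log2 3.02, adjusted p = 0.0414 with 6 libraries). The other matrix gene called lower was Egflam, which encodes pikachurin (log2 -1.32).

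Sums of fibroblast markers moved with the antagonists and the matrix genes. The 8 activated fibroblast markers summed to 321 to 463 CPM in flox and 1129.9 to 3452 CPM in cKO hearts, and 6 of the 8 were called higher with 5 libraries. In both fits 1 of the 8 was lower at an unadjusted p under 0.05, and DESeq2 called 1 lower. Meox1, Cilp and Comp were called with 6, and 5 of the 8 are themselves on the role lists. The 8 general fibroblast markers summed to 1473 to 2189 CPM in flox and 2857 to 3558 CPM in cKO hearts, with 2 of 8 called higher with 5 libraries and 7 of 8 on the role lists. The 8 endothelial markers summed to 1429 to 1854 CPM and 1117 to 1339 CPM, and the 8 cardiomyocyte markers to 47939 to 63779 CPM and 30601 to 34039.6 CPM. In bulk tissue more cells of a type and more RNA per cell cannot be told apart, and the part of these markers in the results was not tested. The labels name cardiomyocytes as the cell type, yet markers of endothelial cells, fibroblasts and macrophages were present in every library.

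Extracellular proteases and their inhibitors had 4 genes called higher and 1 lower of 131 tested with 6 libraries, and 27 higher and 5 lower of 140 with 5 libraries. With 5 libraries that was 19.3% higher and 3.57% lower, against 4.26% and 2.93% of all genes. With 6 libraries the higher share was 3.05%, against 0.37% of all genes, of which 0.138% were called lower. Serpina3n, an inhibitor of granzyme B and elastase secreted in acute phase responses, was at 9.06, 6.86 and 7.96 CPM in flox and 153, 140.3 and 173 CPM in cKO hearts, with little spread in either group and close paralogs that may share its reads (19.5-fold, log2 4.29 ± 0.34 SE, adjusted p = 0.0255). Serpinf1, the antiangiogenic factor PEDF, was at 14.6, 17.7 and 18.3 against 76.6, 131 and 134 CPM (adjusted p = 0.0387). Enzymes that process natriuretic peptides and angiotensin moved in opposite directions. Mme, which encodes neprilysin, a peptidase that degrades natriuretic peptides, was at 8.49, 10.5 and 9.99 CPM in flox and 0.451, 1.14 and 0.749 CPM in cKO hearts, 12.4-fold lower and apart in every library (log2 -3.63 ± 0.43 SE, adjusted p = 0.0387). Ace, the angiotensin-converting enzyme, was at 59.3, 46.2 and 5.82 against 238, 201 and 323 CPM. Flox replicate 3 was far below the other flox libraries for Ace, and the gene was called with 5 libraries only (log2 2.27, adjusted p = 0.0108; 0.177 with 6).

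The tissue inhibitors of metalloproteases also diverged. Timp1 was at 2.37, 1.18 and 9.26 against 20.1, 33.7 and 31.6 CPM and rose with 5 libraries (log2 4.00, adjusted p = 0.00694). Timp4, the family member enriched in heart, was at 49.5, 37.9 and 121 against 5.56, 12.6 and 6.74 CPM and fell with 5 libraries (log2 -2.40, adjusted p = 0.0156). Neither was called with 6 (adjusted p = 0.168 and 0.0828), and flox replicate 3 was the highest flox library for both. Mmp2 was at 80.2, 95.6 and 33 against 186, 228 and 249 CPM and Mmp23 at 6.6, 5.11 and 4.88 against 21.5, 37 and 33.9 CPM, the second called in both fits. Adamtsl2, a secreted protein that binds fibrillin and latent TGF-beta binding protein, was at 17.8, 17.1 and 6.13 against 161, 139 and 238 CPM (log2 3.71, adjusted p = 0.049 with 6 libraries). Ctss, a cysteine protease of antigen-presenting cells, went from 16.6, 16.2 and 27 to 98.5, 89.3 and 133 CPM (adjusted p = 0.00527 with 5 libraries). Pcolce, which speeds procollagen cleavage, went from 29.8, 37.9 and 43.3 to 118, 158 and 184 CPM (adjusted p = 0.0104 with 5 libraries).

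Receptors had 5 genes called higher and 1 lower of 393 tested with 6 libraries, and 57 higher and 17 lower of 415 with 5 libraries. The 17 lower calls were 4.10% of those tested, against 2.93% of all genes, and the 57 higher calls 13.7%, against 4.26%. With 6 libraries the higher share was 1.27%, against 0.37% of all genes, of which 0.138% were called lower. Total counts alone gave 76 higher and 11 lower with 5 libraries. Fzd2, a receptor for Wnt ligands, was at 4.36, 4.32 and 3.22 CPM in flox and 29.3, 36.7 and 28.5 CPM in cKO hearts, 7.92-fold higher with no overlap (log2 2.99 ± 0.31 SE, adjusted p = 0.0269). Fzd1 went from 8.14, 11.2 and 3.61 to 32.5, 23.8 and 29.1 CPM (adjusted p = 0.018 with 5 libraries). Itgbl1, a secreted protein with integrin beta-like repeats listed with the integrins, was at 7.98, 8.19 and 5.59 against 113, 108 and 158 CPM (adjusted p = 0.0255). Itgb1, the main integrin beta chain, was at 377, 465 and 202 against 435, 335 and 514 CPM and was not called (log2 0.026 with 5 libraries).

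With TMM scaling, no receptor of TGF-beta family ligands or natriuretic peptides was called. Of the 13 receptor serine/threonine kinases and co-receptors tested with 5 libraries, 0 were called by edgeR, while 3 were higher and 2 lower at an unadjusted p under 0.05, and DESeq2 called the same numbers. On total counts alone edgeR called 2 of the 13 higher, and with the length correction 2 higher and 1 lower. Tgfbr1 was at 24.4, 24.4 and 7.57 against 45.3, 32.3 and 46.1 CPM and Tgfbr2 at 63.7, 64.3 and 29.2 against 106, 102 and 117 CPM, both without overlap and neither called (adjusted p = 0.0993 and 0.0634 with 5 libraries). Of the 3 natriuretic peptide receptors 0 were called and 0 passed an unadjusted p of 0.05 in either fit, by DESeq2 as well. Npr1, the receptor for atrial and B-type natriuretic peptides, was at 32, 33.4 and 9.35 against 31.1, 33.1 and 28.8 CPM, level apart from flox replicate 3 (log2 0.31 with 6 libraries, -0.073 with 5). The clearance receptor Npr3 was at 29.8, 21.2 and 7.45 against 42.8, 24.3 and 27.1 CPM.

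Of the lipid mediator, protease and chemokine receptors, which immune cells use among others, 16 of 49 tested were called higher and 1 lower with 5 libraries. These were 32.7% and 2.04%, against 4.26% and 2.93% of all genes. Receptors of immune cells from this and other families follow. Ccr2, the chemokine receptor of recruited monocytes, was at 2.51, 2.92 and 3.64 CPM in flox and 14.3, 10.8 and 12.2 CPM in cKO hearts (log2 2.04, adjusted p = 0.0493). Cxcr6, found on T and NK cells, was at 0.318, 0.234 and 0.565 against 8.47, 11.9 and 4.46 CPM (log2 4.50, adjusted p = 0.0387). Trem2, a lipid-sensing receptor of macrophages, was at 2.66, 2.4 and 5.05 against 13.7, 16.1 and 15.2 CPM. C3ar1, the receptor of complement C3a, was at 9.07, 9.98 and 12.9 against 34.9, 27.5 and 27.8 CPM. P2ry6, a uridine nucleotide receptor, was at 4.86, 5.36 and 11 against 13.3, 17.4 and 15.3 CPM. These 3 were called with 5 libraries, and all 3 kept their groups apart. F2r, the thrombin receptor PAR1, went from 39.6, 38.2 and 30.7 to 98.1, 99.5 and 125 CPM (adjusted p = 0.0135 with 5 libraries). Tnfrsf12a, the receptor of TWEAK, was at 27.2, 30.5 and 178 against 136, 266 and 82.2 CPM, and flox replicate 3 exceeded 2 of the 3 cKO libraries, so that its log2 fold change was 2.49 with 5 libraries and 1.04 with 6. Some of the immune marker lists moved with this group. The 9 macrophage markers summed to 247 to 402 CPM in flox and 461 to 577 CPM in cKO hearts (5 called higher and 1 lower with 5 libraries, and 3 of the 9 on the receptor list). The 5 recruited monocyte markers, which include Ccr2, summed to 7.33 to 10.4 and 20.2 to 26.1 CPM (1 called higher). The 7 T and NK cell markers summed to 1.89 to 2.51 and 9.12 to 9.97 CPM (2 called higher). The 4 B cell markers went the other way, at 3.134 to 3.957 and 1.297 to 2.109 CPM. With 5 libraries edgeR called none of them and DESeq2 called 2 lower. Sums of mast cell markers overlapped, and those of neutrophil markers rose, from 4.307 to 4.743 CPM in flox to 7.768 to 9.601 CPM in cKO hearts. No marker of these last lists was called by edgeR. The part of the marker lists in the results was not tested.

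The receptors that fell included ones through which cardiomyocytes read autonomic, purine and metabolic signals. Gpr22, an orphan receptor expressed in heart and brain, was at 38.7, 37.1 and 59.6 CPM in flox and 3.65, 3.36 and 2.48 CPM in cKO hearts, 14.3-fold lower and the receptor called lower in both fits (log2 -3.83 ± 0.37 SE, adjusted p = 0.0255). Adra1a, an alpha-1 adrenergic receptor, was at 16.6, 12.3 and 4.69 against 2.26, 2 and 2.94 CPM and Chrm2, the muscarinic receptor of the heart, at 148, 132 and 61.2 against 38.8, 33.5 and 48.1 CPM. P2ry1, an ADP receptor, was even in flox hearts at 23.2, 23.3 and 24.2 CPM and at 3.31, 4.93 and 7.25 CPM in cKO hearts. All 3 fell with 5 libraries (log2 -2.59, -1.80 and -2.17) and missed the threshold with 6 (adjusted p = 0.109, 0.165 and 0.0609). Cd36, which takes up fatty acids, was at 1281, 1251 and 1407 CPM in flox and 422, 421 and 417 CPM in cKO hearts, 3.01-fold lower with 5 libraries (adjusted p = 0.0108; 0.0989 with 6). The lipoprotein receptor Vldlr was at 342, 331 and 166 against 133, 96.2 and 149.7 CPM and the growth hormone receptor Ghr at 138, 133 and 169.7 against 71.6, 67.4 and 82.4 CPM. The sphingosine 1-phosphate receptor S1pr3 was at 38.5, 37.8 and 30.5 against 15.8, 19.9 and 19.2 CPM and the ferritin receptor Scara5 at 41, 33.4 and 17.9 against 9.87, 12.6 and 4.34 CPM. All 4 had their groups apart and were called with 5 libraries. Erbb4, the neuregulin receptor of cardiomyocytes, was at 12.5, 12 and 0.678 against 1.84, 0.954 and 3.79 CPM, so the call with 5 libraries (log2 -2.48, adjusted p = 0.0357) rested on flox replicates 1 and 2. Flox replicate 3 was the lowest of all 6 libraries.

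**Figure D4:**
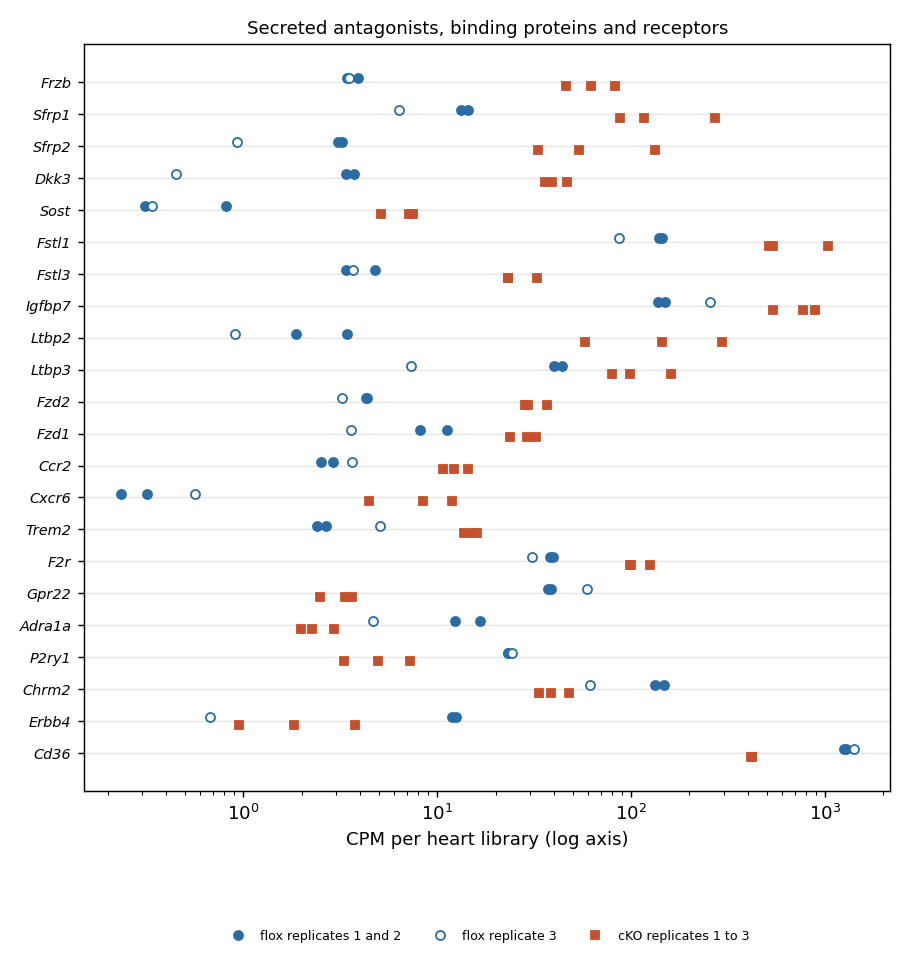
Level of 22 secreted antagonists, binding proteins and receptors in each heart library, on a log axis in CPM, with symbols for flox replicates 1 and 2 (filled circles), flox replicate 3 (open circles) and the 3 cKO replicates (squares). For Gpr22, Adra1a, P2ry1, Chrm2 and Cd36 the squares lie left of every circle, and for Erbb4 the open circle lies left of the squares.

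Ligands and their receptors were then read as pairs. Of 170 pairs listed, 150 had both genes tested with 5 libraries, and in 99 neither gene was called. The ligand alone was called higher in 25 pairs and lower in 5, and the receptor alone higher in 11 and lower in 5. In 3 pairs both genes rose, namely Ccl12 with Ccr2, Cxcl10 with Cxcr3, and Cxcl16 with Cxcr6, all of them chemokine pairs. Whether 3 is more than unrelated calls of ligands and receptors would give was not tested. Cxcr3 itself was at 0.216, 0.104 and 0.48 against 1.57, 1.53 and 2.17 CPM. In 2 pairs the ligand rose and the receptor fell, Hbegf with Erbb4 and Thbs1, a matricellular protein at 11.1, 13.1 and 1.92 against 55.6, 36.9 and 137 CPM, with Cd36. With 6 libraries both genes were tested in 145 pairs and no pair had both called by edgeR, against 10 with both at an unadjusted p under 0.05 and 3 with both called by DESeq2, so the 5 pairs rest on leaving out flox replicate 3.

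Transcription regulators had 2 genes called higher (0.448%, against 0.37% of all genes) and none lower of 446 tested with 6 libraries (17 lower at an unadjusted p under 0.05, 9 by DESeq2), and 31 higher and 13 lower of 459 with 5 libraries. The 13 lower calls were 2.83% of those tested, against 2.93% of all genes. Total counts alone gave 45 higher and 9 lower with 5 libraries. Of the 2 genes called with 6 libraries, Esr1 can hold reads of the MCM transgene. The other, called in both fits, was Meox1, a homeobox factor induced in activated fibroblasts, at 15.6, 13.2 and 18 CPM in flox and 80.1, 104 and 147 CPM in cKO hearts (log2 2.83 ± 0.37 SE, adjusted p = 0.0387). Ankrd1, a muscle protein of the sarcomere and nucleus whose promoter is printed with that of Nppa, was at 494, 456 and 845 against 5459, 6999.6 and 3352 CPM. All cKO values lay above the highest flox value, and it was called with 5 libraries (log2 3.48 ± 0.41 SE, adjusted p = 0.00911; 0.0615 with 6). Egr2, Atf3, Maff and Myc were also called higher with 5 libraries. Egr2 went from 0.407, 0.363 and 0 to 10.2, 9.01 and 16.9 CPM and Atf3 from 2.95, 2.89 and 6.55 to 10.8, 18.6 and 14.6 CPM. Maff went from 5.65, 5.79 and 9.74 to 17.6, 23.5 and 18.1 CPM and Myc from 1.97, 1.86 and 0.903 to 6.14, 5.42 and 4.98 CPM. None of these 4 passed with 6 libraries, where the adjusted p ran from 0.074 (Egr2) to 0.121 (Atf3).

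Some factors tied to other cell types were also called higher with 5 libraries. Sox9 and Runx1, factors of cartilage and bone that activated fibroblasts also use, were at 3.08, 2.89 and 0.734 against 11, 9.85 and 24.7 CPM and 2.26, 2.45 and 1.1 against 7.42, 6.01 and 12.8 CPM. Tcf21, a factor of cardiac fibroblasts, was at 7.26, 8.65 and 14.9 against 17.7, 27.1 and 24.2 CPM. Irf8, a factor of the monocyte lineage, was at 7.26, 6.25 and 7.09 against 17.6, 17.6 and 18.3 CPM. Bhlhe41, a repressor of the clock, was at 13.1, 12.4 and 4.74 against 34.4, 33.9 and 36.3 CPM and Id2, an inhibitor of bHLH factors, at 7.29, 7.42 and 15.2 against 28.3, 36.9 and 18.2 CPM. In each of these 6 genes the cKO values lay above all flox values, and the log2 fold changes with 5 libraries ran from 1.40 (Irf8) to 2.34 (Sox9). The GATA, T-box, SOX and forkhead factors, which include Sox9, had 3 called higher and 3 lower of 54 with 5 libraries. Each share was 5.56%, against 4.26% and 2.93% of all genes. Those called lower were Tbx3, Sox6 and Sox7 (log2 -1.23, -1.57 and -1.09), all with overlapping groups. With TMM scaling and 5 libraries, no SMAD, SKI or E2F factor was called by edgeR, although 6 of 24 were higher and 1 lower at an unadjusted p under 0.05 and DESeq2 called 4 higher and 0 lower. On total counts alone edgeR called 2 of the 24 higher, and with the length correction 3 higher.

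Among the 13 regulators called lower with 5 libraries were Ppargc1a and Perm1, which act on oxidative metabolism. Ppargc1a, the coactivator that drives mitochondrial biogenesis, was at 127, 129.8 and 50.7 CPM in flox and 36, 21.7 and 35.7 CPM in cKO hearts. Perm1, which acts with it and oestrogen-related receptors in muscle, was at 358, 339 and 244 against 105, 105 and 122 CPM. All cKO values of both lay below all flox values. The log2 fold changes with 5 libraries were -2.04 ± 0.27 (SE, adjusted p = 0.0108) and -1.66 ± 0.20 (SE, adjusted p = 0.00967). With 6 libraries the adjusted p were 0.152 and 0.105. Of 39 nuclear receptors tested with 5 libraries, 3 were called lower (7.69%, against 2.93% of all genes) and 1 higher (2.56%, against 4.26%). The higher one was Esr1, whose counts can hold reads of the MCM transgene. Nr3c2, 1 of the 3 lower, had overlapping groups (log2 -1.17). Rxrg was at 57.7, 62.1 and 181 against 15.1, 20.7 and 18.7 CPM and the thyroid hormone receptor Thrb at 14.7, 14.8 and 9.35 against 5.76, 4.7 and 2.56 CPM, both called lower with 5 libraries (log2 -1.72 and -1.76). Klf15, a repressor of hypertrophic genes that follows glucocorticoids, was at 39.3, 48.3 and 67.3 against 19.7, 24.4 and 17.7 CPM, and Mitf, a bHLH factor, at 48.7, 43.6 and 28.9 against 20.1, 16.8 and 20.6 CPM. Snai3, a zinc finger repressor, had the lowest log2 fold change among the 13 regulators called lower, at 2.15, 4.14 and 5.59 against 0.126, 0.165 and 0.402 CPM (log2 -3.76, adjusted p = 0.018 with 5 libraries; 0.0606 with 6). Zbtb16, another zinc finger factor, was called too, at 126, 46.4 and 4.8 against 13.9, 4.77 and 13.5 CPM. Its flox libraries spanned the cKO values, and flox replicate 3 was level with cKO replicate 2.

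Intracellular signal regulators were called in both directions, with 3 higher and none lower of 184 tested with 6 libraries (12 lower at an unadjusted p under 0.05, 8 by DESeq2) and 19 higher and 13 lower of 186 with 5. The shares with 5 libraries were 10.2% higher and 6.99% lower, against 4.26% and 2.93% of all genes. With 6 libraries the higher share was 1.63%, against 0.37% of all genes. Total counts alone gave 24 higher and 6 lower with 5 libraries. Inhibitors of the pathways named above were among the genes that rose. Nkd2, a feedback inhibitor of Wnt signalling, was at 1.59, 2.02 and 1.5 against 18.4, 20.1 and 41.6 CPM (log2 3.97, adjusted p = 0.0336 with 6 libraries). Pmepa1, a target and inhibitor of TGF-beta signalling, was at 27.4, 32.3 and 19.2 against 90.1, 111 and 119 CPM. Spry1, which dampens receptor tyrosine kinases, was at 30.4, 26.2 and 17.1 against 70.3, 73.3 and 69.6 CPM. The last 2 were called with 5 libraries (adjusted p = 0.0101 and 0.0138). Rgs11, a regulator of G protein signalling, went from 0.305, 0.234 and 0.226 to 4.33, 2.9 and 4.41 CPM and the G protein gamma chain Gng8 from 0.382, 0.363 and 0.706 to 6.33, 5.12 and 6.52 CPM, both called in both fits. Rgs2, a brake on Gq signalling, was at 29.7, 29.7 and 73.1 against 6.98, 11 and 8.34 CPM and fell with 5 libraries (log2 -1.76, adjusted p = 0.0115). Among kinases of fuel use, Prkag3, an AMPK gamma chain of skeletal muscle, was at 1.79, 2.41 and 2.09 against 15.6, 17.3 and 7.86 CPM. Pdk3, which inhibits pyruvate dehydrogenase, was at 2.4, 2.79 and 4.15 against 19.4, 18.6 and 8.96 CPM, and both were called higher with 5 libraries. Prkab1, another AMPK subunit gene, was called lower with 5 libraries, with its groups apart (log2 -0.81). The 6 skeletal muscle markers summed to 115 to 231 CPM in flox and 900.0 to 2002 CPM in cKO hearts, with Myh4 at 0 in all libraries, and their part in the Prkag3 result was not tested. Pde3a, a cyclic nucleotide phosphodiesterase, was at 144, 152 and 27.3 against 46.3, 26.3 and 45.4 CPM, where flox replicate 3 lay within the cKO values. Its call (log2 -1.91, adjusted p = 0.0146 with 5 libraries) did not hold with 6 (adjusted p = 0.358).

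Channels were the role in which the lower calls were more numerous, with 1 higher and 3 lower of 158 tested with 6 libraries and 6 higher and 21 lower of 170 with 5. With 6 libraries 0.37% of all genes were called higher and 0.138% lower. The channel shares with 5 libraries were 3.53% higher and 12.4% lower, against 4.26% and 2.93% of all genes. The balance of the counts changed with the scaling. With total counts alone and 5 libraries, 16 of the 170 channels were called higher and 15 lower. Of all 19094 genes, 1340 were then called higher and 336 lower. The lower share was still larger among channels than among all genes. The median of the tested channels went from -0.16 to 0.09 on the log2 scale while that of all genes went from 0.02 to 0.27. Potassium channels supplied 10 of the 21 lower calls. Kcnj3, a subunit of the acetylcholine-gated potassium channel, was at 19.4, 20.2 and 7.34 CPM in flox and 2.56, 1.74 and 2.26 CPM in cKO hearts. Kcnj2, which carries the inward rectifier current that sets the resting potential, was at 45.1, 52.8 and 21.1 against 12.1, 7.27 and 13 CPM. Kcnip2, the accessory subunit of the transient outward current, was at 117, 123 and 93.2 against 21.1, 30.7 and 39.2 CPM. For all 3 the cKO values lay below every flox value, with log2 fold changes of -3.17, -2.18 and -1.99 with 5 libraries (adjusted p = 0.00314, 0.0106 and 0.0123). With total counts alone the values were -2.91, -1.90 and -1.73. The channels called lower in both fits were Scn4b, a sodium channel beta subunit, at 13.3, 14.4 and 9.94 against 1.85, 1.27 and 2.32 CPM (log2 -2.79 ± 0.36 SE, adjusted p = 0.0387), Kcnv2 and Cngb3. Kcnv2, a silent potassium channel subunit, was at 11.4, 5.51 and 2.85 against 0.178, 0.305 and 0.358 CPM. Cngb3, a cyclic nucleotide-gated subunit, was at 4.25, 4.32 and 10.2 against 0.168, 0.0509 and 0.212 CPM.

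Other channels went the other way or did not pass. Panx1, which forms large pores that release ATP, was the channel called higher in both fits, at 1.31, 1.74 and 2.23 CPM in flox and 11.2, 16 and 14.6 CPM in cKO hearts (log2 2.99 ± 0.35 SE, adjusted p = 0.0336). Kcnj14, another inward rectifier, went from 0.369, 0.96 and 1.07 to 8.27, 11.1 and 6.21 CPM and was called higher with 5 libraries. Aqp4, a water channel, was at 14.5, 12.9 and 6.72 against 0.178, 0.305 and 0.849 CPM (log2 -4.95, adjusted p = 0.00972 with 5 libraries; 0.0508 with 6). Gja1 (connexin 43), the main gap junction protein of the ventricle, was at 507, 553 and 405 against 144, 173 and 362 CPM, and although every cKO value lay below every flox value it was not called in either fit (adjusted p = 0.327 and 0.116). Replicate 3 of the cKO hearts was close to flox replicate 3. Of the 8 cardiomyocyte markers 1 was called lower with 5 libraries, and DESeq2 called 3. Their median log2 fold change was -0.92, and their part in the channel results was not tested.

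**Figure D5:**
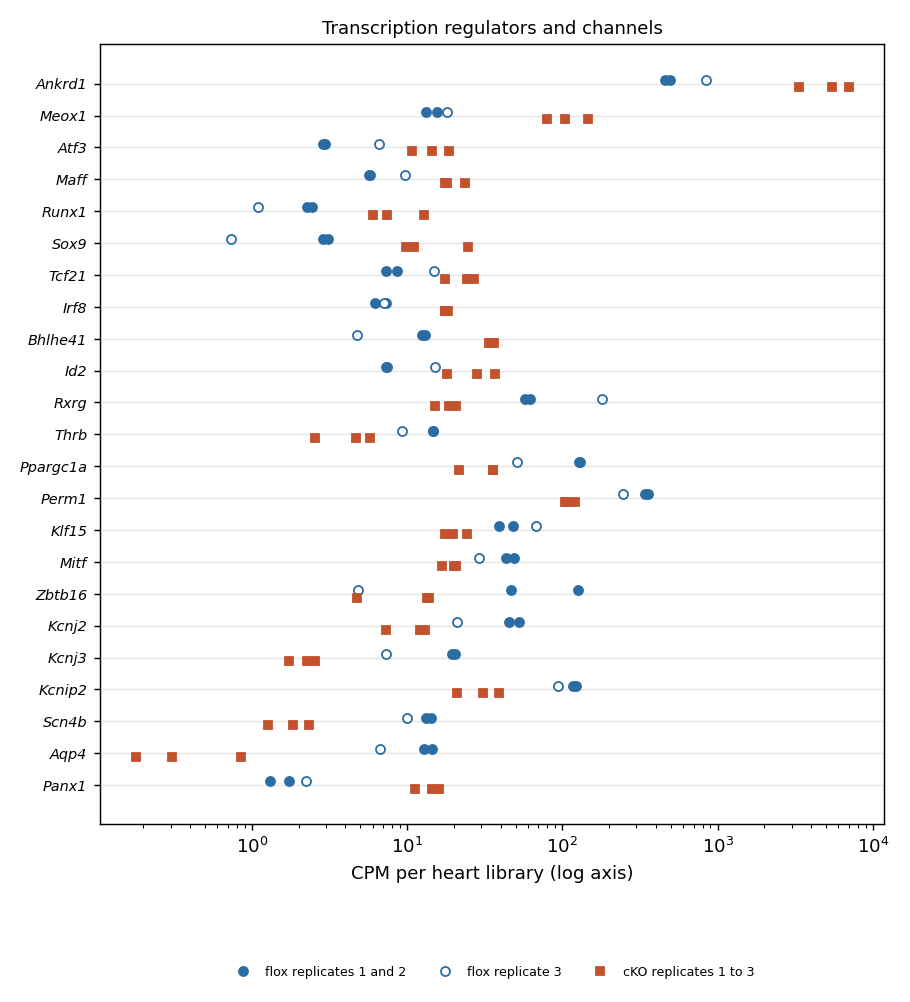
Level of 17 transcription regulators (upper rows) and 6 channels (lower rows) in each heart library, on a log axis in CPM, with filled circles for flox replicates 1 and 2, open circles for flox replicate 3 and squares for the 3 cKO replicates. Ankrd1 and Meox1 have all squares right of the circles, Ppargc1a, Perm1 and Kcnj3 have all squares left of them, and Zbtb16 shows flox values from 4.8 to 126 CPM that span the squares.

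Outside the roles, the genes called with all 6 libraries included several of the largest fold changes. Sprr1a, a small proline-rich protein induced in stressed muscle and nerve, was at 0.356, 0.182 and 0.113 CPM in flox and 6.35, 8.73 and 10.9 CPM in cKO hearts (log2 5.26, adjusted p = 0.0298). Cd24a, a surface glycoprotein, was at 2.8, 1.66 and 3.44 against 122, 144 and 26.8 CPM (log2 5.22, adjusted p = 0.049). Among genes that fell, Ces1d, a carboxylesterase that splits lipids and has close paralogs that may share its reads, was at 62.1, 54.3 and 92.3 against 6.03, 5.34 and 5.23 CPM (log2 -3.65, adjusted p = 0.0255). Ucp3, a mitochondrial carrier that rises with fatty acid use, was at 27.4, 24 and 24.7 against 2.69, 2.48 and 1.13 CPM (log2 -3.59, adjusted p = 0.0366). Lrtm1, Smco1 and Rasgef1a fell by 3.43, 3.21 and 5.45 on the log2 scale, all with adjusted p at or under 0.0388. All 92 genes called with 6 libraries were also called with 5, in the same direction.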

How the data were processed

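RNA was extracted with TRIzol from heart apex and sequenced on libraries made by Illumina protocols, per the labels' protocols. The authors deposited 1 table of unnormalised read counts for 54087 mouse gene symbols, of which 25957 were at 0 in all 6 libraries. HISAT2 2.1.0, StringTie 1.3.4, edgeR 3.20.9 and mm10 are named in the submitters' processing notes. The sources used here do not give the counting rules, strand setting or annotation, so reads of overlapping and antisense genes cannot be told apart. The rat libraries were not used here.

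Genes were kept by filterByExpr, scaled by TMM and tested two-sided with edgeR 4.0.16 quasi-likelihood models (R 4.3.3, robust dispersion), group being the only term, with Benjamini-Hochberg adjustment over all genes tested. The standard error is the absolute log2 fold change divided by the square root of F. The test was tested on simulated data first. The smallest p of an exact permutation test of 3 against 3 is 0.1, and none was run. No pair of libraries was a duplicate. Flox replicates 1 and 2 were the closest pair, with a chi-square per degree of freedom of 28.66 between their counts. It was 149.9 to 406.3 between cKO libraries and 1623 to 1668 between flox replicate 3 and the other flox libraries. The flox side of the fit with 5 libraries is this closest pair alone, and its p-values rest on that small spread.

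The gene lists, their members, the ligand and receptor pairs and the cell markers were chosen with earlier results of these data known, and give no independent support. The rule for named genes took every role member called with 6 libraries, the 8 smallest p per role and direction without flox replicate 3 among members whose groups do not overlap, the 3 highest flox levels per role, the 12 highest and 12 lowest genes overall and the pairs with both genes called, at a mean of at least 1 CPM. The text gives a selection, and it adds genes outside the rule that were picked after their values were seen. Promoters come from RefSeq (GRCm38.p6) and coordinates of Jmjd4 from GENCODE M21. Alternatives were DESeq2 1.42.0 size factors and Wald test, total counts, voom with quality weights (limma 3.58.1), other filters, a replicate block, a length correction (lowess, span 0.3, on the 80.0% of tested genes with a transcript length) and leaving out libraries.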

Additional observations from a re-analysis of the deposited data

How the results depend on the processing

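With 6 libraries, 67 genes were called higher and 25 lower. DESeq2's size factors and a mean of at least 5 CPM gave counts within 1.5 times of these. Total counts alone gave 20 and 0, no filter 104 and 42, the length correction 526 and 478, DESeq2's Wald test 957 and 791, and voom with quality weights 2164 and 1687. Leaving out 1 library gave 0 to 813 higher and 0 to 560 lower, the highest values without flox replicate 3 and 0 without any other library. Without flox replicate 3 and cKO replicate 2 together the counts were 1793 and 1792. The replicate block gave 0 and 0, with 1591 genes at an unadjusted p under 0.05. The labels do not say that replicate numbers pair the mice, and deviations of same-numbered libraries correlated at 0.357, -0.479 and -0.331, so the numbers were not taken as pairs.

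Without flox replicate 3, 813 genes were called higher and 560 lower, total counts alone gave 1340 and 336, DESeq2's Wald test 1849 and 1312, and the length correction, an alternative chosen after seeing the data, 1320 and 1327. Of the 1373 genes, 1349 were also called with the length correction and 1372 without cKO replicate 2. Npr1 changed sign, from 0.31 with 6 libraries to -0.087 with voom and -0.13 without flox replicate 3 and cKO replicate 2, and leaving out 1 library gave -0.073 to 0.59, none of them called. The causes were not tested. Genes near 1 CPM, such as the chemokines, rest on few counts per library.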
